A study of Homo sapiens with 39 samples.

Results

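The 41 genes described here act in mitosis: they drive entry into it, build the spindle, hold chromosomes until they are attached, pull the sister chromosomes apart and divide the cell. They were chosen by name, from CCNA2 to FOXM1, and a row of the deposited tables belonged to the set when its gene symbol was one of these names. All 41 were found among 20802 gene targets, each measured by 1 amplicon, and all 41 passed the filter on low counts in every fit. HepaRG cells, an established human hepatic progenitor line that yields hepatocyte-like and cholangiocyte-like cells, were bought differentiated, cultured and dosed on 3 days, and RNA was taken after 55 h of exposure, 7 h after the last dose. Each of the 39 libraries held RNA pooled from 3 cultures, so a condition had 1 library and no replicate of its own.

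Chemicals that damage DNA (DDI, for DNA damage-inducing) numbered 5. Aflatoxin B1 (AFB1, a mold toxin that binds DNA once metabolized) was given at 0.25, 1 and 2.5 µM, 2-nitrofluorene (2NF, a nitroarene) at 10, 50 and 250 µM, cisplatin (CISP, a DNA crosslinker) at 2, 5 and 10 µM, and etoposide (ETP, which traps type II topoisomerases on DNA) at 0.5, 2.5 and 10 µM, all in DMSO. Methyl methanesulfonate (MMS, a DNA methylating agent) was given at 50, 100 and 200 µM in water. Among the non-DDI chemicals, colchicine (COL), which binds tubulin and stops the spindle from forming, was given at 0.05, 0.1 and 0.3 µM in DMSO. The other 4 were dissolved in media: 2-deoxy-D-glucose (2DG) at 1.25, 5 and 10 mM, ampicillin trihydrate (AMP) at 1, 3 and 10 mM, sodium ascorbate (ASC) at 1, 2 and 10 mM, and sodium chloride (NaCl) at 1, 2.5 and 10 mM. There were 9 vehicle controls: 4 of DMSO (for CISP, 2NF, ETP, and 1 shared by AFB1 and COL), 4 of media and 1 of water. The concentrations of each chemical are called low, mid and high below, and they do not match between chemicals.

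Library totals ran from 8504699 to 16425527 counts, and levels are given in RPM, reads scaled to a common library total. The hepatocyte marker ALB lay between 2299 and 36331 RPM and the cholangiocyte marker KRT19 between 199 and 1314 RPM, whereas KRT7 and EPCAM had at most 3 and 2 counts in any library and the leukocyte marker PTPRC was listed at 0 counts in all 39.

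In a dividing cell these genes work in sequence. CDK1 with cyclins A and B starts mitosis, the kinases PLK1, AURKA and AURKB mature the poles and correct faulty attachments, and kinesins slide and cross-link spindle fibers. A checkpoint made of MAD2L1, BUB1, BUB1B and TTK watches kinetochores such as NDC80, NUF2 and SPC25 and keeps CDC20 from activating the anaphase promoting complex until all chromosomes are attached. Most of the genes are transcribed late in the cycle, under B-MYB, FOXM1 (itself one of the 41) and the DREAM repressor complex, many through a pair of promoter elements, the CCAAT box and the cell cycle genes homology region (CHR). Adult hepatocytes rarely divide, so a liver culture normally has little of these transcripts.

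Since the 41 genes moved together in many of the libraries, their promoters were read from RefSeq (GRCh38.p14) as windows of 300 bases, 250 before and 50 after the annotated start. Windows were found for 35 genes, 4 of them with 2 starts, giving 39 windows. AURKA, FOXM1, TTK, TPX2, BIRC5 and UBE2C had no entry. The letters of the CHR searched for (TTTGAA or TTCGAA, either strand) stood in 30 of the 39 windows (76.9%) and in 16.4% of all 35116 windows of the table. The CCAAT letters (either strand) stood in 32 of 39 (82.1%) against 34.6% of all windows, and both motifs together in 25 of 39 (64.1%) against 6.38%. A match overlapped one of the other motif in 2 of the 39 windows. These are matches of letters and not shown to be sites. The 150 bases before the start are printed below, 5′ to 3′ on the strand of the gene, for 6 genes. CCNB1, CDC20, PLK1 and KIF18A were the 4 called higher under COL than in the mean of the 4 DDI chemicals in DMSO. The other 2 were not called in that comparison (CDK1, at the downstream of its 2 starts, and TOP2A). Capitals mark CHR and CCAAT letters on either strand.
CCNB1, chr5:69167000-69167149, plus strand: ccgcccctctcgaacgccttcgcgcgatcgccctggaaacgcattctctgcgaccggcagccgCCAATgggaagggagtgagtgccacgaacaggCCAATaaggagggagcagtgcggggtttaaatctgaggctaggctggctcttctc
CDC20, chr1:43358831-43358980, plus strand: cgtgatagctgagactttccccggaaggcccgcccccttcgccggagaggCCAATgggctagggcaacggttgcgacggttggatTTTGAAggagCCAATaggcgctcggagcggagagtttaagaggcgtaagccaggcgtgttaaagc
PLK1, chr16:23678739-23678888, plus strand: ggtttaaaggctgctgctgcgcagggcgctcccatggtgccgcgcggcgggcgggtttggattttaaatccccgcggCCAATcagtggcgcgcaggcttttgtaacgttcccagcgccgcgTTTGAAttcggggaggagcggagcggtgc
KIF18A, chr11:28108157-28108306, minus strand: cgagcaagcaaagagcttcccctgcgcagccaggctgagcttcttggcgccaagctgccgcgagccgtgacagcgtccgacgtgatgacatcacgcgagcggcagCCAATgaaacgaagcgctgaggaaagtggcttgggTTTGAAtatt
CDK1, chr10:60778328-60778477, plus strand: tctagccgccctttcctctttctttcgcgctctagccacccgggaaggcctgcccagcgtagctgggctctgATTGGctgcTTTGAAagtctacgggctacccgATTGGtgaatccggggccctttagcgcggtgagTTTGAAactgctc
TOP2A, chr17:40417897-40418046, minus strand: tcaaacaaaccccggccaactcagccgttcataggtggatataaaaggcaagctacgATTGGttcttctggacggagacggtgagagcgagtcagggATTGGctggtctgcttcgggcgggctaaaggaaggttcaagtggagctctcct
CDC20, PLK1, KIF18A and CDK1 held both motifs in the printed stretch, whereas CCNB1 and TOP2A held CCAAT letters there without the CHR letters searched for. Over the window of 300 bases TOP2A did hold the CHR letters and CCNB1 did not. At its upstream start CDK1 held CCAAT letters but no CHR letters in the 150 bases. Only a few of the uncalled genes are printed, so whether the motifs separate called from uncalled genes was not tested.

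The summed level of the 41 genes shows the size of the response. In the DMSO controls of CISP, 2NF, AFB1 with COL, and ETP the sum was 349.7, 283.4, 290.5 and 311.9 RPM. It reached 506.1, 773.7 and 1146 RPM at low, mid and high AFB1, and 611.5, 1005 and 1921 RPM in 2NF. Both chemicals raised the sum at every step, to 3.95 times the control at 2.5 µM AFB1 and 6.78 times at 250 µM 2NF. CISP gave 436.0, 439.7 and 617.7 RPM and ETP 437.5, 861.6 and 506.9 RPM, so CISP stayed within 1.77 times its control and ETP was highest at its mid concentration (2.76 times). MMS gave 1370, 2121 and 2169 RPM over a water control of 864.2 RPM, 2.51 times at 200 µM. COL gave 904.1, 1079 and 1254 RPM, which is 3.11, 3.71 and 4.32 times the control it shares with AFB1. A library mixes the RNA of all cells in the culture, so fewer or more cells in mitosis and less or more RNA per cell cannot be told apart.

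**Figure D1:**
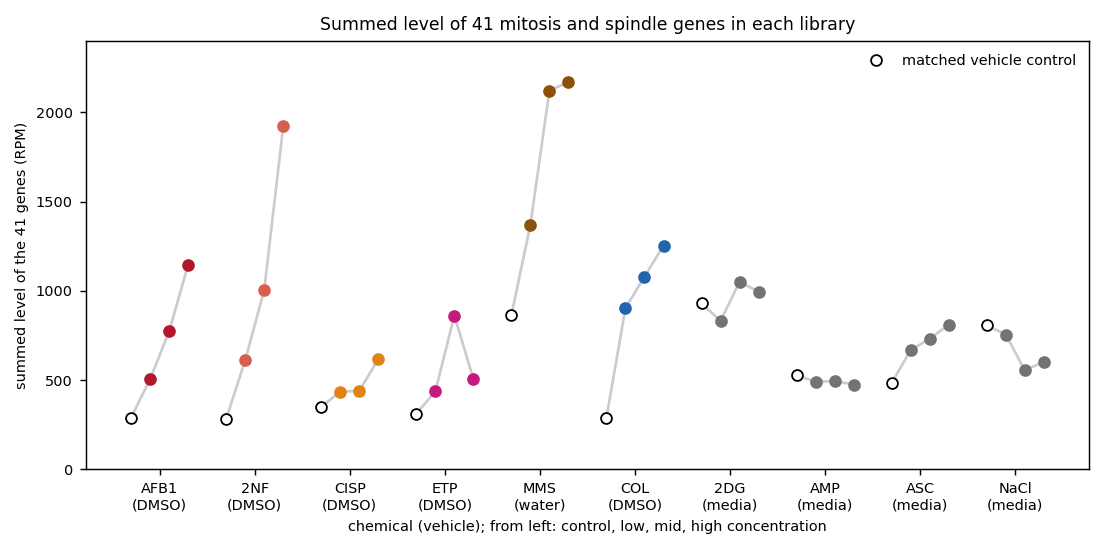
Summed level of the 41 mitosis and spindle genes (y axis, RPM) in each library, by chemical and vehicle (x axis). Open circles are the matched vehicle controls and filled circles the low, mid and high concentrations from left to right, 1 library each. AFB1, 2NF, CISP, MMS, COL and ASC climb at every step, CISP only slightly from low to mid and MMS from mid to high. ETP peaks at mid. The DMSO controls (283.4 to 349.7 RPM) lie below the media and water controls (483.8 to 929.6 RPM).

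The controls themselves differed by vehicle. The sum in the media controls of NaCl, 2DG, ASC and AMP was 807.2, 929.6, 483.8 and 528.0 RPM, every one above every DMSO control. For all 41 genes the median DMSO control was below the median media control, but the share of all targets with such medians was not counted. For 23 genes the highest DMSO control was below the lowest media control, as was so for 8.87% of the 12790 targets with a mean of at least 1 RPM. Vehicle and chemical series cannot be told apart here, since each control was run with its own chemical. Each treated library is therefore compared with its own control, as the log2 ratio of (RPM + 1), or with controls of the same vehicle. A pair of media controls, those of ASC and AMP, also lay below the other pair, so results on the chemicals in media rest on which control is used.

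The first comparison asked whether the 5 DDI chemicals moved these genes as a class. At the high concentrations 35 of the 41 genes rose and 0 fell (edgeR's quasi-likelihood test with Benjamini-Hochberg adjustment, each chemical as a replicate and the control set as a block). Over all 13916 genes tested 3.36% were higher and 3.78% lower. The median log2 difference of the 41 was 1.43, beside -5e-04 over all genes tested. At the mid concentrations 22 of 41 rose, against 0.81% of 13955 genes higher and 0.158% lower, with a median of 1.16. At low concentrations 0 genes were called by edgeR, as over all 13923 genes (0%), although 27 of the 41 had an unadjusted p under 0.05 and DESeq2 called 9; their median was 0.65.

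By role, and with log2 differences ± SE at the high concentrations, CDK1 (1.69 ± 0.28, adjusted p = 0.00763), CCNA2 (1.33 ± 0.23, adjusted p = 0.00998) and CCNB1 (1.04 ± 0.29, adjusted p = 0.0492) rose, the kinase and cyclins of mitotic entry, while CCNB2, another B-type cyclin, was at 0.38 ± 0.34, adjusted p = 0.57. All 4 checkpoint genes rose, with TTK, the kinase that starts the checkpoint signal, at 1.64 ± 0.23, adjusted p = 0.00336 and MAD2L1, part of the inhibitor of CDC20, at 1.20 ± 0.20, adjusted p = 0.00864. All 7 kinesins named KIF rose, from KIF18A at 1.36 ± 0.25, adjusted p = 0.0102 to KIF14 at 1.76 ± 0.46, adjusted p = 0.0376. Their tasks differ: KIF11 pushes the spindle poles apart, KIF18A damps chromosome movement and KIF20A acts in cytokinesis. All 6 genes of spindle assembly rose, among them PRC1, which bundles the central spindle (1.68 ± 0.32, adjusted p = 0.0127), and NUSAP1, which binds and stabilizes spindle fibers (1.37 ± 0.24, adjusted p = 0.0101). Of 6 kinetochore and centromere genes 5 rose, and CENPE, a kinesin of the kinetochore, was at 1.21 ± 0.38, adjusted p = 0.0744. TOP2A, the topoisomerase that untangles sister chromosomes and a target of etoposide, was at 1.74 ± 0.27, adjusted p = 0.0063, and FOXM1 at 1.48 ± 0.30, adjusted p = 0.0146. Of the 3 kinases only PLK1 was called (1.38 ± 0.32, adjusted p = 0.0251), with AURKA at 1.74 ± 0.54, adjusted p = 0.068 and AURKB at 1.65 ± 0.47, adjusted p = 0.051. ECT2, which sets the cleavage plane, missed the threshold at 1.26 ± 0.36, adjusted p = 0.0502.

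Of the 41 genes 39 were above the matched control in all 5 DDI chemicals at the high concentration, beside 13.5% of all 12790 targets; the exceptions were CCNB2 and UBE2C. The same held for 25 genes at mid (6.18% of targets) and 19 at low (3.51%). The count of calls rested on the chemicals: without AFB1 it was 2 of 41 at high, without 2NF 17 and without MMS 20, and it was 8 without the block of control sets. At mid it was 9 without MMS, 10 without AFB1, 14 without 2NF and 0 without the block. In the same fits the 10 hepatocyte-like markers had a median log2 difference of -0.97 at high, where 4 fell (APOA1, APOB, TF and TTR), and of -1.07 at mid with none called, and their part in the result was not tested.

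Against the 4 other non-DDI chemicals, a separate test of the difference found less. In 2DG, AMP, ASC and NaCl at the high concentrations 0 of the 41 genes were called (0% of all genes), with a median of 0.10. At an unadjusted p under 0.05 there was 1 of the 41, beside 435 of 13916 over all genes. The difference between the DDI class and these 4 had a median of 1.36 at high and 1.09 at mid over the 41 genes. All 4 were dissolved in media and the DDI chemicals in DMSO or water. Class and vehicle therefore cannot be told apart in this difference. None of the 41 was called by edgeR at either concentration, where 0.0862% and 0.0143% of all genes were higher and 0% lower. At an unadjusted p under 0.05 there were 32 and 27 of the 41, beside 1891 of 13916 and 1205 of 13955 over all genes. DESeq2 called 15 and 13 of the 41, and its share over all genes was not counted. TTK had the smallest adjusted p of the 41 at high, with a difference of 1.58 ± 0.33, adjusted p = 0.0921.

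Library by library, CCNB1 stood at 10.9, 9.22, 10.6 and 11.4 RPM in the DMSO controls (in the order CISP, 2NF, AFB1 with COL, ETP, which is kept below). It was at 14.8, 20.4 and 25.2 RPM in low, mid and high AFB1 and at 20.9, 34.3 and 61.3 RPM in 2NF. CISP gave 14.98, 10.1 and 13.3 RPM and ETP 15.4, 21.9 and 12.9 RPM. All AFB1 and 2NF libraries exceeded every DMSO control, while mid CISP lay inside their range. MMS gave 49.7, 73.5 and 48.8 RPM over a water control of 23.6 RPM. In COL the level was 36.9, 48.5 and 56.1 RPM, higher at every concentration than any AFB1, CISP or ETP library. The 12 libraries of 2DG, AMP, ASC and NaCl ran from 12.9 to 35.6 RPM, over media controls of 23.9, 27.8, 17.4 and 16.8 RPM (NaCl, 2DG, ASC, AMP).

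CDK1, the kinase itself, showed another order. Its DMSO controls were at 15.2, 10.7, 13.5 and 16.7 RPM, AFB1 at 26.5, 41.8 and 71.8 RPM and 2NF at 31.04, 50.97 and 87.3 RPM. CISP gave 15.3, 19.9 and 31.02 RPM, ETP 19.7, 40.7 and 30.1 RPM and COL 26.6, 33.96 and 39.7 RPM. High COL was thus below mid AFB1 and mid ETP, the reverse of CCNB1. MMS gave 59.8, 117 and 113 RPM over 39.6 RPM, and its mid and high libraries had the highest levels of all 39. Media controls were at 40.5, 39.1, 20.9 and 27.1 RPM and the 12 libraries in media at 19.9 to 52.8 RPM.

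PLK1, which works from mitotic entry to cytokinesis, was at 9.98, 7.43, 7.45 and 9.68 RPM in the DMSO controls. AFB1 gave 13.3, 16.6 and 20.7 RPM, 2NF 14.8, 30.8 and 65.4 RPM, CISP 16.2, 13.05 and 14.5 RPM and ETP 13.3, 24.1 and 11.1 RPM. All 12 were above the highest control. COL gave 39.8, 39.5 and 59.5 RPM, already at the lowest concentration above all of these but high 2NF. MMS gave 42.4, 81.4 and 78.1 RPM over 22.1 RPM, and the media series 13.02 to 30.5 RPM over controls of 21.03, 24.6, 16.3 and 18.2 RPM.

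CDC20, the activator of the anaphase promoting complex, was also highest in COL and high 2NF among the chemicals in DMSO. It was at 5.36, 3.14, 3.87 and 5.296 RPM in the DMSO controls, at 7.66, 8.12 and 11.5 RPM in AFB1 and at 9.93, 12.8 and 25.5 RPM in 2NF. CISP gave 8.93, 10.1 and 9.26 RPM, ETP 6.43, 11.1 and 5.41 RPM and COL 20.2, 18.3 and 24.8 RPM. High ETP sat next to its control while the 3 COL libraries exceeded all others in DMSO except high 2NF. MMS gave 18.5, 43.5 and 34.1 RPM over 13.1 RPM, the media series 6.38 to 18.8 RPM, and media controls 13.5, 15.4, 9.68 and 9.07 RPM.

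TOP2A had 38.1, 24.8, 28.4 and 31.8 RPM in the DMSO controls, 53.9, 108 and 162 RPM in AFB1 and 59.2, 136 and 198 RPM in 2NF. In CISP it was at 54.8, 35.5 and 74.0 RPM, in ETP at 51.3, 112 and 58.7 RPM and in COL at 75.3, 79.05 and 88.8 RPM. The COL libraries were nearly level with each other and below mid AFB1, mid 2NF and mid ETP, and mid CISP was within the controls. MMS gave 150, 261 and 258 RPM over 81.9 RPM, the media series 42.8 to 105 RPM, and media controls 75.9, 91.1, 46.6 and 55.7 RPM.

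MKI67, which coats mitotic chromosomes and is the usual marker of proliferation, was at 13.7, 6.81, 11.2 and 9.15 RPM in the DMSO controls. It was at 18.98, 22.8 and 39.6 RPM in AFB1, 18.1, 28.7 and 63.4 RPM in 2NF, 16.6, 11.6 and 22.97 RPM in CISP, 13.8, 28.8 and 20.2 RPM in ETP and 33.3, 43.9 and 43.5 RPM in COL. Of the 15 treated libraries in DMSO only mid CISP fell within the range of the controls. MMS gave 49.7, 52.9 and 90.02 RPM over 34.98 RPM, the media series 14.1 to 40.7 RPM, and media controls 31.6, 31.2, 13.6 and 21.1 RPM.

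BUB1, a checkpoint kinase, was at 14.5, 9.32, 9.67 and 8.55 RPM in the DMSO controls, 22.4, 26.3 and 42.4 RPM in AFB1, 21.4, 34.99 and 68.1 RPM in 2NF and 40.02, 45.98 and 50.6 RPM in COL. CISP gave 10.4, 14.7 and 26.1 RPM and ETP 15.6, 26.8 and 15.6 RPM. Low CISP was below its own control (14.5 RPM), where the other libraries in DMSO were above theirs. MMS gave 51.1, 48.1 and 67.2 RPM over 30.9 RPM, the media series 16.5 to 43.2 RPM, and media controls 24.6, 36.7, 10.04 and 14.8 RPM.

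FOXM1 ran from 4.702, 3.88, 2.86 and 4.84 RPM in the DMSO controls to 3.77, 8.66 and 13.1 RPM in AFB1, 7.35, 13.9 and 30.3 RPM in 2NF and 10.5, 12.9 and 13.01 RPM in COL. CISP gave 4.99, 6.71 and 6.11 RPM and ETP 4.798, 13.7 and 8.35 RPM. Low AFB1 and low ETP were within the control range, and all COL libraries were above it. MMS gave 14.5, 32.5 and 33.6 RPM over 12.8 RPM, the media series 5.51 to 13.2 RPM, and media controls 11.5, 15.3, 6.51 and 5.54 RPM.

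KIF20A, a kinesin of cytokinesis, was at 5.77, 4.19, 4.37 and 5.37 RPM in the DMSO controls, 9.44, 11.3 and 16.2 RPM in AFB1, 9.74, 12.1 and 41.7 RPM in 2NF and 16.4, 17.3 and 23.6 RPM in COL. CISP gave 8.14, 12.01 and 7.87 RPM, ETP 8.92, 10.2 and 7.53 RPM and MMS 26.6, 21.7 and 27.4 RPM over 11.8 RPM. High 2NF stood well above every other library. The media series gave 6.15 to 22.3 RPM, and media controls 10.2, 15.9, 11.6 and 7.89 RPM.

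KIF11, the kinesin that pushes the spindle poles apart, was at 3.13, 1.89, 1.65 and 3.86 RPM in the DMSO controls, 3.77, 7.12 and 10.8 RPM in AFB1, 4.87, 8.84 and 11.9 RPM in 2NF and 7.48, 8.94 and 6.83 RPM in COL. CISP gave 5.98, 3.69 and 4.72 RPM, ETP 2.78, 7.73 and 3.998 RPM and MMS 10.9, 16.1 and 20.9 RPM over 6.11 RPM. Its highest levels were those of mid and high MMS, and it rose there at each step, while in COL it was highest at mid. The media series gave 2.88 to 11.6 RPM, and media controls 4.57, 6.82, 4.08 and 4.28 RPM.

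AURKA, the kinase of the spindle poles, was near the limit of detection, with 0.742, 0.628, 0 and 0 RPM in the DMSO controls, of which the controls of AFB1 with COL and of ETP had 0 counts. AFB1 gave 0.444, 1.07 and 1.59 RPM, 2NF 0.955, 1.52 and 3.07 RPM and COL 2.38, 2.08 and 2.93 RPM. CISP gave 0.263, 0.378 and 0.833 RPM, ETP 0.672, 1.12 and 0.470 RPM and MMS 2.92, 3.69 and 4.06 RPM over 1.82 RPM. All COL libraries were above all DMSO controls, but with at most 42 counts in any library the size of the change is poorly fixed. The media series gave 0.485 to 1.99 RPM, and media controls 1.12, 1.71, 0.487 and 0.672 RPM.

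**Figure D2:**
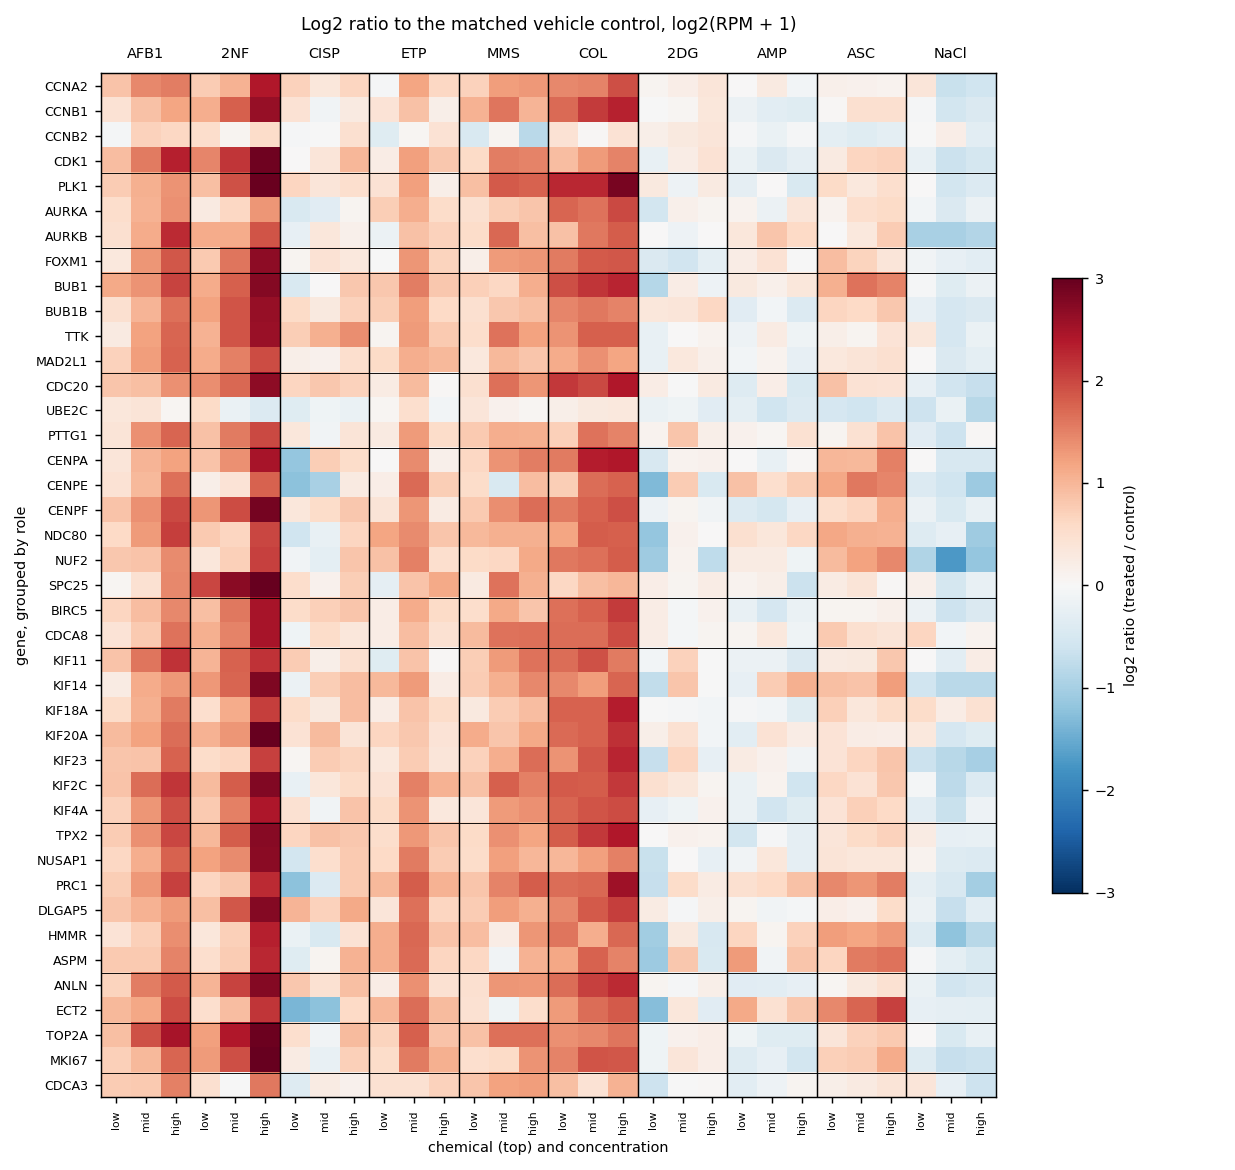
Log2 ratio of (RPM + 1) between each treated library and its matched control for the 41 genes (rows, grouped by role) in 30 conditions (columns, low, mid and high of each chemical), red for higher and blue for lower than the control. The AFB1, 2NF and COL columns and mid ETP are red for nearly all genes, with medians up to 2.47 in high 2NF, UBE2C and CCNB2 stay pale, and of the chemicals in media ASC has 39 of 41 genes above the control at each concentration and NaCl 2 and 4 at mid and high.

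By concentration, each chemical had its own course. More than a 2-fold rise over the matched control was seen for 1, 27 and 39 of the 41 genes at low, mid and high AFB1, where 0.117%, 0.657% and 3.35% of the 12790 targets rose as much. For 2NF the counts were 18, 29 and 39 genes, against 0.704%, 2.78% and 4.46% of targets. For MMS they were 2, 27 and 31, against 0.36%, 3.21% and 3.15%. The log2 ratio rose from low to mid to high for 39 of the 41 genes in AFB1 (32.3% of targets), for 36 in 2NF (18.4%), for 24 in COL (22.8%), for 17 in MMS (19.8%) and for 15 in CISP (18.1%). SPC25, a kinetochore subunit, had the largest ratio in low and mid 2NF (2.01 and 2.71), over a 2NF control of 0.314 RPM that was itself below the other DMSO controls (1.65 to 2.95 RPM). In high 2NF the largest was that of MKI67 (3.04).

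ETP and CISP, both DNA-damaging drugs, gave fewer genes past a 2-fold rise at their high concentration. Under ETP more than a 2-fold rise was seen for 4, 29 and 4 genes at low, mid and high (1.13%, 2.2% and 1.02% of targets), and 38 of the 41 genes were highest at the mid concentration, beside 33.1% of targets. The medians of the log2 ratio were 0.41, 1.27 and 0.63. PRC1 had the largest ratio at mid ETP (1.82). Under CISP the counts were 1, 1 and 3 genes (0.321%, 0.915% and 0.493% of targets), and the medians 0.07, 0.30 and 0.67. TTK was highest at mid and high CISP (1.06 and 1.40), whereas ECT2 was lowest at low and mid (-1.38 and -1.23).

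Tested over the 3 concentrations of a chemical against the 4 DMSO controls, so that differences between concentrations count as spread, 36 of the 41 genes rose under 2NF, against 2.73% of 13247 genes higher and 1.74% lower, with a median log2 difference of 1.84. AFB1 raised 1 gene, MAD2L1 (1.36 ± 0.21, adjusted p = 0.04), against 0.0679% higher and 0.00755% lower. Its median was 1.35, with 38 of the 41 genes and 2021 of all 13247 at an unadjusted p under 0.05. DESeq2 called 23 of the 41 for AFB1, and its share over all genes was not counted. Without low AFB1 edgeR called 16, without the DMSO control of AFB1 and COL 9, and 0 without mid AFB1, high AFB1 or any of the other 3 controls. ETP and CISP had 0 genes called (0% and 0% of all genes higher, 0% and 0.00755% lower), with medians of 0.91 and 0.60. At an unadjusted p under 0.05 there were 29 and 14 of the 41, beside 536 and 1586 of all 13247 genes. DESeq2 also called 0 of the 41 for both. Without 250 µM 2NF the count for 2NF was 8.

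COL, the spindle poison, was then set against the same 4 DMSO controls. It raised 35 of the 41 genes and lowered 0, against 4.6% of 13247 genes higher and 2.48% lower, and the median log2 difference was 1.83. Without the highest concentration the count was 18. AURKA (2.90 ± 0.67, adjusted p = 0.0141), KIF14 (2.50 ± 0.48, adjusted p = 0.00407) and PLK1 (2.40 ± 0.34, adjusted p = 0.0009) had the largest differences. AURKA had 9, 6, 0 and 0 counts in the DMSO controls, the control matched to COL being at 0, so its size depends on how the fit treats low counts. On the log2 ratio of (RPM + 1) to the matched control, PLK1 (2.27, 2.26 and 2.84 at low, mid and high) was above AURKA (1.75, 1.63 and 1.97) and KIF14 (1.43, 1.25 and 1.75). UBE2C (0.12 ± 0.35, adjusted p = 0.884), CCNB2 (0.15 ± 0.39, adjusted p = 0.867) and CDCA3 (0.68 ± 0.42, adjusted p = 0.363), an adapter of a cell cycle ubiquitin ligase, had the smallest, and AURKB, CENPE and SPC25 also missed the threshold. All 4 checkpoint genes, all 7 kinesins named KIF and all 6 spindle assembly genes rose. In the chromosomal passenger complex BIRC5 (1.84 ± 0.28, adjusted p = 0.00104) and CDCA8 (1.78 ± 0.33, adjusted p = 0.00364) rose, whereas its kinase AURKB was not called. At the lowest concentration most of the genes were already high: more than a 2-fold rise was seen for 32, 37 and 38 genes at 0.05, 0.1 and 0.3 µM (0.821%, 1.64% and 3.94% of targets), with medians of 1.496, 1.76 and 1.86.

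The difference between COL and the mean of the 4 DDI chemicals in DMSO (AFB1, 2NF, CISP and ETP) was tested directly in the same fit. The controls cancel in this difference, so it compares levels of treated libraries and not their ratios to matched controls. Of the 41 genes 4 were higher under COL and 0 lower, against 2.91% of 13247 genes higher and 1.16% lower. They were CCNB1 (1.22 ± 0.21, adjusted p = 0.00218), PLK1 (1.24 ± 0.26, adjusted p = 0.00964), CDC20 (1.06 ± 0.22, adjusted p = 0.00866) and KIF18A, a kinesin that damps chromosome movement (0.97 ± 0.26, adjusted p = 0.0384). Other large differences did not pass, among them AURKA (1.41 ± 0.47, adjusted p = 0.0981) and the centromere histone CENPA (1.25 ± 0.37, adjusted p = 0.0628). The median was 0.71, and 22 of the 41 had an unadjusted p under 0.05. At the other end were CCNB2 (-0.30 ± 0.32, adjusted p = 0.671), CDK1 (-0.12 ± 0.28, adjusted p = 0.869), CDCA3 (-0.10 ± 0.35, adjusted p = 0.914) and TOP2A (-0.10 ± 0.30, adjusted p = 0.899). The 95% intervals of the difference were -0.71 to 0.47 for CDK1, -0.73 to 0.53 for TOP2A and -0.13 to 0.61 for MAD2L1, so a 2-fold higher level of CDK1 under COL lies outside its interval. Without 0.3 µM COL the count was 0 and without the CISP libraries 3. The 4 DDI chemicals are not of equal size here: high 2NF alone reached or exceeded COL for CCNB1, PLK1, CDC20 and KIF18A (18.6 RPM against 16.5 RPM in high COL for KIF18A), while CISP and ETP lay far below it.

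**Figure D3:**
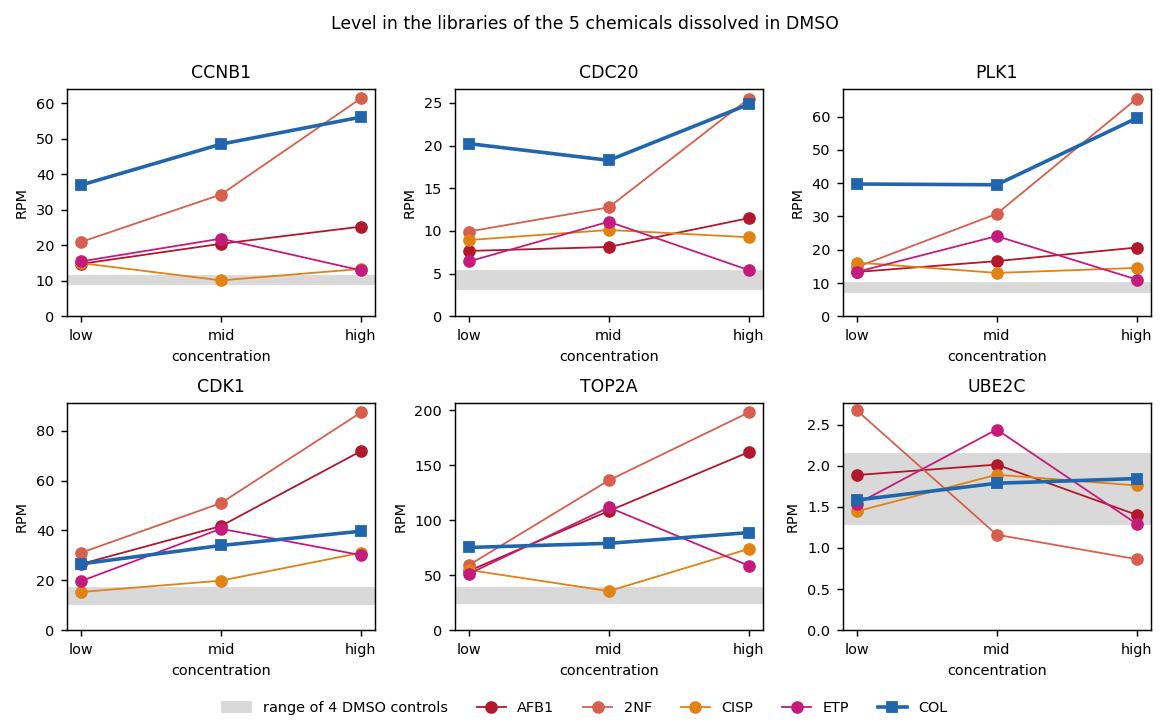
Level (RPM, y axis from 0) of CCNB1, CDC20, PLK1, CDK1, TOP2A and UBE2C at the low, mid and high concentrations (x axis) of the 5 chemicals in DMSO, 1 library per point, with the range of the 4 DMSO controls in grey. COL (squares) is above AFB1, CISP and ETP at every concentration for CCNB1, CDC20 and PLK1, is below AFB1 at mid and high for CDK1 and TOP2A, and UBE2C stays between 0.86 and 2.67 RPM in all 15 treated libraries.

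**Figure D4:**
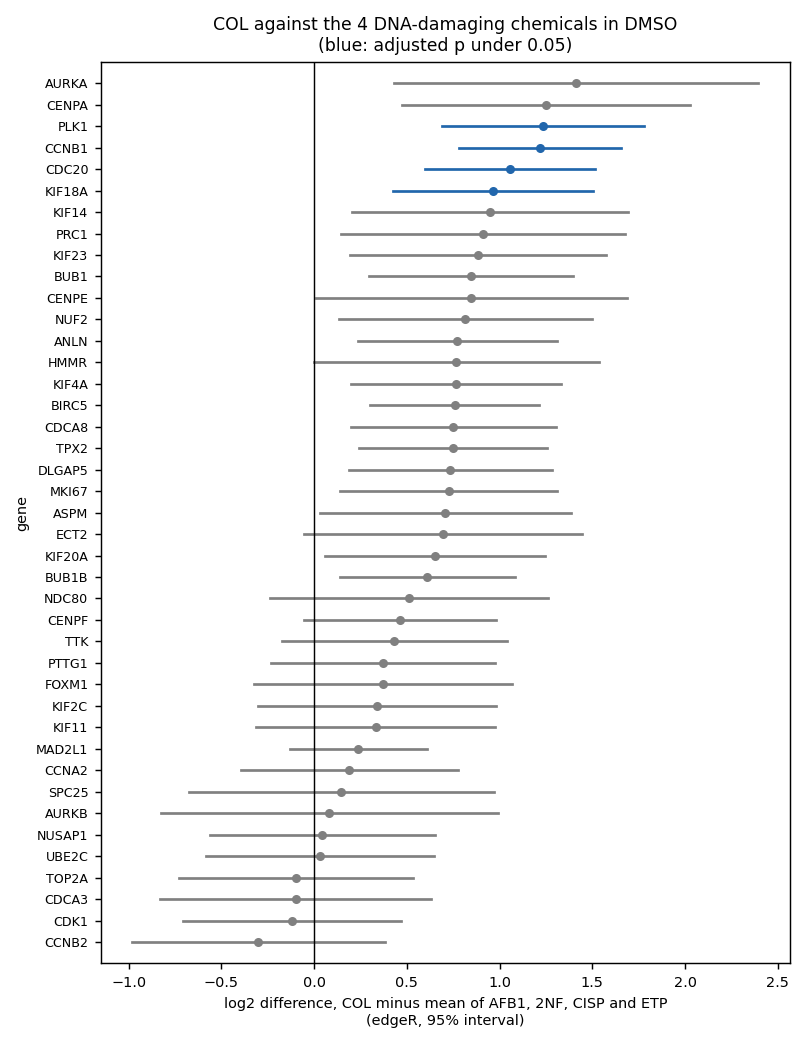
Log2 difference between COL and the mean of AFB1, 2NF, CISP and ETP (x axis) for each of the 41 genes (y axis), with the 95% interval from edgeR. The genes called, in blue, are CCNB1 (1.22 ± 0.21), PLK1 (1.24 ± 0.26), CDC20 (1.06 ± 0.22) and KIF18A (0.97 ± 0.26, SE), and CDK1, TOP2A and CCNB2 lie near 0.

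None of the chemicals in media gave a called change in these genes. Against the 4 media controls 0 of the 41 genes were called under 2DG, AMP, ASC or NaCl (edgeR, with 18, 15, 1 and 0 at an unadjusted p under 0.05), where 0.589% of 13422 genes were higher and 0.708% lower under ASC and 0% under the other 3. The medians were 0.45, -0.44, 0.11 and -0.08. UBE2C under ASC was nearest to a call, at -1.56 ± 0.38, adjusted p = 0.0524, with 0.607, 0.506 and 0.711 RPM against media controls of 1.28 to 2.95 RPM, and DESeq2 called 1 of the 41. Against the matched control alone, 30 of the 492 pairs of gene and condition were more than 2-fold higher (1.42% of all pairs of targets and conditions), 27 of them under ASC, and 12 more than 2-fold lower (0.605%), all under NaCl or low 2DG. The median ratio under ASC was 0.42, 0.48 and 0.69 against its own control and 0.03, 0.13 and 0.30 against the mean of all media controls, and for 2DG it moved from -0.16, 0.13 and 0.08 to 0.28, 0.60 and 0.54.

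UBE2C, the ubiquitin-conjugating enzyme of the anaphase promoting complex, and CCNB2 had the smallest differences in the DDI class at high and under COL. UBE2C had 5 to 31 counts (median 18) and CCNB2 7 to 34 counts (median 17) per library, among the lowest of the 41. KIF23 (12 to 109 counts, median 32) and HMMR (10 to 147 counts, median 41) rose in the DDI class and under COL. In the DMSO controls KIF23 and HMMR were about as scarce as UBE2C and CCNB2. The part of low counts in the small differences was not tested. In 2NF UBE2C was at 2.67, 1.16 and 0.863 RPM and CCNB2 at 2.58, 1.61 and 2.59 RPM over 2NF control levels of 1.47 and 1.47 RPM. The count was 10 or more in all libraries for 35 of the 41. The highest of the 39 libraries was an MMS library for 31 genes and high 2NF for 10.

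Other genes of the cell cycle, listed with earlier results known, moved alongside. Of 50 other mitotic genes tested, 40 rose in the DDI class at high (median 1.27), 41 under 2NF (median 1.59) and 33 under COL (median 1.36), and 4 were higher under COL than in the mean of the DDI chemicals in DMSO (median 0.32). They were TROAP (1.42 ± 0.28, adjusted p = 0.00694), ARHGAP11A, CEP55 and UBE2S. Of 20 genes of G1/S and replication 14 rose in the DDI class at high (median 0.90) and 10 under 2NF (median 0.88). Under COL 3 rose, E2F1, MCM7 and UHRF1 (median 0.62). None of the 20 was called between COL and the DDI chemicals by edgeR (0 at an unadjusted p under 0.05), with a median of -0.09. CDKN1A, the p53 target that inhibits cyclin-dependent kinases, rose in the DDI class at high (0.50 ± 0.11, adjusted p = 0.0187) and under 2NF (0.61 ± 0.14, adjusted p = 0.0168), was at -0.18 ± 0.14, adjusted p = 0.482 under COL, and was lower under COL than in the mean of the 4 DDI chemicals in DMSO (-0.62 ± 0.12, adjusted p = 0.00577).

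Markers of the cell types moved in the same libraries. The 10 hepatocyte-like markers had a median log2 difference of -0.86 under 2NF, where ALB and TF fell, and of -0.66 under COL, where edgeR called none (3 at an unadjusted p under 0.05). Their summed level was 28894 to 52400 RPM in the 9 controls, 16156 to 33928 RPM in 2NF, 4977 to 23285 RPM in MMS, 29515 to 41947 RPM in CISP and 22606 to 41732 RPM in COL. The matched controls of these were at 41247, 29949, 52400 and 47078 RPM, above every library of their chemical. ETP (39737 to 44153 RPM) was above its control (38050 RPM). Under COL all 10 markers were below the matched control at each concentration, with median log2 ratios of -0.36, -0.40 and -1.23 at low, mid and high. Of 7 biliary-like and progenitor markers 6 had a target and 3 were tested. Their sum was 464.6 to 1454 RPM in the controls and 297.8 to 317.5 RPM in 2NF, where KRT19 and SOX9 fell while SPP1 was at 0.85 ± 0.26, adjusted p = 0.0744. Under COL KRT19 and SOX9 were higher than in the mean of the 4 DDI chemicals in DMSO, and SPP1 was at -0.57 ± 0.24, adjusted p = 0.193 in that difference. The 5 non-epithelial markers summed to 114.8 to 197.6 RPM in the controls and 86.70 to 181.9 RPM in the treated libraries. The part of these changes in the values of the mitotic genes was not tested.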

How the data were processed

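Gene expression was measured with a targeted amplicon panel (AmpliSeq) in 39 libraries. The authors aligned reads to the panel's transcripts (hg19) with the Torrent Mapping Alignment Program, and the deposited counts are raw reads per amplicon, 1 target per gene. The deposited RPM values are those counts scaled by the authors to each library's total; recomputed, they differed by at most 0.000538. A further 10 spike-in targets had 0 counts. The authors' amplicon coordinates were not used here.

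Library totals had a median of 11202013 counts (8504699 to 16425527), and their number limits the precision of the scarcest genes. No pair of controls agreed within sampling noise. Each condition had 1 library of 3 pooled cultures, so p-values measure the spread between chemicals or concentrations, not between cultures.

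Counts were tested in edgeR 4.0.16 (R 4.3.3; TMM scaling, filterByExpr, quasi-likelihood F test, threshold 0.05 on Benjamini-Hochberg p over all genes tested), with DESeq2 1.42.0 as an alternative. In the class fits, 1 per concentration level, 19 libraries were used, chemicals were the replicates and the 9 matched control sets the block, with terms for DDI, COL and the other non-DDI chemicals (7 residual degrees of freedom). AFB1 and COL share a control set. The DMSO fit held 19 libraries (13 degrees of freedom) and the media fit 16 (11), with the 3 concentrations of a chemical as its libraries. Comparisons within a fit share controls. Errors are SE and 95% intervals. Log2 ratios to the matched control used RPM + 1, over 12790 targets with a mean of at least 1 RPM. Fits were tested on simulated counts. Grouping followed the labels; the assignment of chemicals to DDI and non-DDI followed the study's text.

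The 41 genes and all lists were chosen with earlier results of these data known. Values in every library were given for 11 genes, with the extremes of each comparison; outside genes were limited to CDKN1A, markers and list genes past the threshold. Alternatives covered normalization, low-count filters, DESeq2, the block, the pseudocount, the control used and leaving out each chemical or library. Leaving out the CISP libraries was added after seeing the data.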

Additional observations from a re-analysis of the deposited data

Results flagged for a closer look

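The 4 genes below were picked out because their level under COL differed from the mean level under AFB1, 2NF, CISP and ETP in a direct test of that difference (edgeR's quasi-likelihood test with Benjamini-Hochberg adjustment over 13247 genes). The log2 difference was 1.22 for CCNB1, 1.24 for PLK1, 1.06 for CDC20 and 0.97 for KIF18A. In all 4 the COL libraries were higher, and without 0.3 µM COL none of the 4 passed the threshold. Hepatocyte-like markers had a median log2 difference of -0.22 in the same comparison, and of the 3 biliary-like markers tested KRT19 and SOX9 were higher under COL while SPP1 was at -0.57 and was not called (adjusted p = 0.193); their part in the result was not tested. For the summed level and the 11 genes given in every library, a rule on gaps flagged no single DMSO or media control as far from the other 3. The rule took the gap to the nearest control as a share of the range. With 4 controls it flags only a very large gap and cannot flag a split into pairs. The media controls did split so, with sums of 483.8 and 528.0 RPM (ASC, AMP) against 807.2 and 929.6 RPM (NaCl, 2DG).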

How the results depend on the processing

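Of 66 alternatives to the counts of called genes that left out no library, 53 gave a count within 1.5 times the reported one. With a filter of at least 1 count in any library the counts were 14 for AFB1, 7 for COL against the 4 DDI chemicals, 1 for the DDI class at low, and 2 and 5 for the DDI class against the other non-DDI chemicals at high and mid. With DESeq2 they were 23 for AFB1, 7 for COL against the DDI chemicals, 9 for the DDI class at low, 15 and 13 for the class difference at high and mid, and 1 for ASC. Without the block of matched control sets the DDI class had 8 at high and 0 at mid. Leaving out 1 chemical or library at a time gave 2 to 35 for the DDI class at high, 9 to 30 at mid, 0 to 12 for the class difference at mid (12 without CISP), 18 to 36 for COL, 8 to 38 for 2NF, 0 to 16 for AFB1, 0 to 5 for COL against the DDI chemicals and 0 to 1 for ASC (1 without the media control of ASC). The causes were not tested. No called difference of a member changed sign. The median ratio to the matched control kept its direction in all 30 conditions with a pseudocount of 0.1 RPM, with TMM scaling and over the 35 genes of 10 or more counts; against the mean control of the vehicle 3 of 30 changed sign (low 2DG from -0.16 to 0.28, mid AMP from 0.05 to -0.29, low NaCl from -0.10 to 0.19). Depth limits AURKA, SPC25, KIF14, AURKB, UBE2C and CCNB2 most, with 0 to 7 counts in their lowest libraries.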

Other observations

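ECT2 and CENPE, singled out after their values were seen, were among the lowest or highest of the 41 genes in several libraries. In low CISP, where 23 of the 41 genes were above the matched control, their log2 ratios were -1.38 and -1.23, with PRC1 at -1.23 and CENPA at -1.15. In mid CISP, where 27 genes were above it, ECT2 and CENPE were at -1.23 and -0.98. In 1.25 mM 2DG, where 15 were above it, they were at -1.27 and -1.32, and NDC80, ASPM, NUF2 and HMMR lay between -1.15 and -1.05. In 10 mM ASC, where 39 were above it, ECT2 was at 2.05 and CENPE at 1.46, with ASPM at 1.64, PRC1 at 1.53, CENPA at 1.504 and BUB1 at 1.49. The media controls differed in the same genes: ECT2 was at 21.1, 23.1, 5.17 and 6.46 RPM in those of NaCl, 2DG, ASC and AMP, and CENPE at 10.8, 10.7, 1.28 and 1.76 RPM.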
